A study of Homo sapiens with 4 samples.

Results

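The aldehyde dehydrogenase (ALDH) genes described here are ALDH2, ALDH1A1, ALDH1A2, ALDH1A3, ALDH1B1, ALDH3A1, ALDH3A2, ALDH3B2, ALDH7A1 and ALDH9A1, which are 10 of 18417 genes compared on the arrays and 10 of 19 ALDH genes measured there. They were chosen by symbol and selected on their log2 signals and on the difference of ALDH2 between the groups, which was already known. Signals and differences of the 10 genes are therefore given as a description, without a test of their own. The cells were MDA-MB-468, an established human line of breast carcinoma with endogenous p53 of the mutant form R273H. For 2 arrays they had been transduced with a non-targeting lentiviral shRNA (NS) and for 2 arrays with the lentiviral shRNA p53si-1, which targets the endogenous p53-R273H mutant. All cells were of the same line, received a lentivirus and grew in medium with serum, and the knockdown rests on 1 shRNA sequence. A legend of the study calls the experiments independent, and its methods and results give different times after transduction. The transcript of p53 itself is not analysed here, and how far it was depleted is not given.

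Aldehyde dehydrogenases oxidize aldehydes to the matching carboxylic acids, with NAD or NADP as the acceptor. Aldehydes arise from alcohols, from amines, from vitamin A and from peroxidized or shortened lipids, and they react with proteins and DNA when they are not removed. The family is divided by substrate and by place in the cell. ALDH2 and ALDH1B1 are mitochondrial enzymes that oxidize acetaldehyde, and the ALDH1A enzymes make retinoic acid from retinal in the cytosol. ALDH3 enzymes act on aromatic and fatty aldehydes, while ALDH7A1 and ALDH9A1 act on amino aldehydes that arise in lysine, choline, polyamine and carnitine metabolism. In breast epithelium, ALDH activity is widely used to mark cells with stem-like or progenitor properties, and ALDH1A1 and ALDH1A3 are the enzymes most often linked to it.

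Values are log2 RMA signals, the summary of all probes of a transcript cluster on an array, and a difference of 1 is a 2-fold difference. Signals of different genes depend on their probes and were not ranked against each other. The arrays had medians from 5.66 to 5.69 over all clusters. All 8 measured epithelial markers, among them EPCAM, CDH1 and KRT8, had signals of 9.38 or more on every array. Of 15 measured markers of leukocytes, endothelium and fibroblasts, 13 lay between 3.01 and 5.49 on all arrays, and the others were COL1A1 and CD14, with highest signals of 7.32 and 9.92. The summed linear signal of these 15 markers ran from 1275 to 1384 with NS and from 1213 to 1307 with p53si-1. CD14, at 9.69 to 9.92 the brightest of them, weighs most in this sum. The part of these markers in the results below was not tested. Between replicates, 105 genes with NS and 133 genes with p53si-1 differed by over 1.5-fold. With 2 arrays per group a two-sided permutation test cannot give a p below 0.333.

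ALDH2 and ALDH9A1, 2 of the 10 genes, had signals lower by over 1.5-fold after p53si-1, and 0 of the 10 were higher by as much. Over all genes 0.652% were lower and 0.271% were higher by over 1.5-fold. Because the genes were chosen with this contrast known, nothing is read from that comparison. In ALDH2, ALDH9A1, ALDH1B1 and ALDH3B2 both p53si-1 arrays lay below both NS arrays, in ALDH1A3 both lay above, and in the other 5 genes the groups overlapped. Over all genes 22.6% were separated downwards and 19.9% upwards in this way, 42.5% in all. In limma, 0 of the 10 genes had an adjusted p under 0.05, against 0.109% of all genes (0.0326% higher and 0.0760% lower), and 4 had an unadjusted p under 0.05, against 12.3% of all genes. Both ALDH2 and ALDH9A1 had an adjusted p under 0.05 under 3 other settings of the fit. In those settings the count over all genes went from 20 to 62, 100 and 149. Under the other settings that kept all 4 arrays neither gene had an adjusted p under 0.05. Nothing is read from these adjusted p values either, because the genes were chosen with this contrast known. The median difference of the 10 genes was 0.0013 on the log2 scale, beside -0.0089 over all genes.

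**Figure D1:**
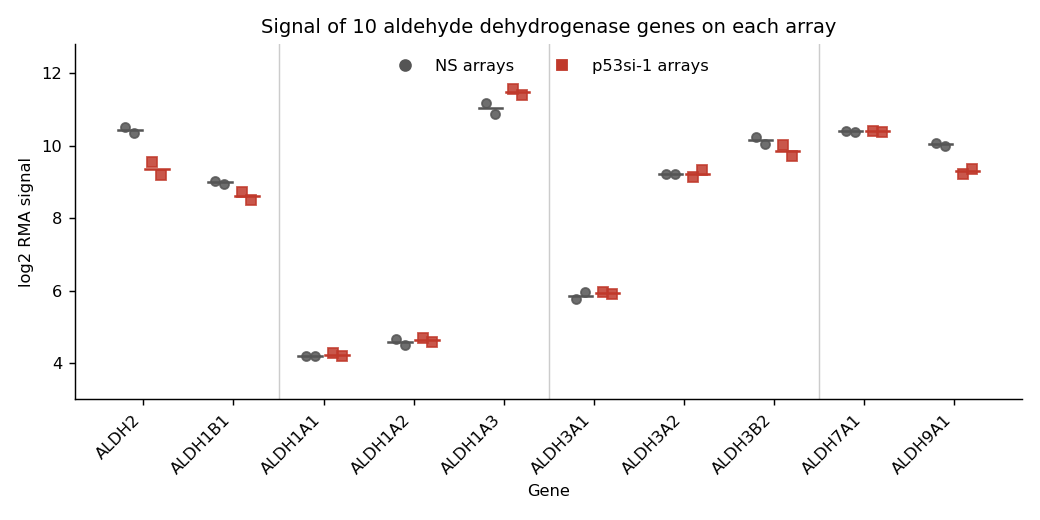
Log2 RMA signal of each of the 10 ALDH genes on the 2 NS arrays (grey circles) and the 2 p53si-1 arrays (red squares), with bars at the group means and grey lines between substrate groups. The squares lie well below the circles for ALDH2 and ALDH9A1 and above them for ALDH1A3, and ALDH1A1 and ALDH1A2 are at 4.69 or less on every array.

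Windows around the start site were read for 7 of the 10 genes, all but ALDH2, ALDH3A1 and ALDH3B2, as 9 windows of 300 bases from 250 bases before to 50 bases after a RefSeq transcript start (GRCh38.p14). The motifs counted on both strands were the GC box (GGGCGG), the CCAAT box (CCAAT), the TATA box (TATAAA), the core of the antioxidant response element (TGACNNNGC) and the p53 half-site. A CCAAT box was in 6 of the 9 windows, against 34.6% of 35116 windows of all genes, and a GC box in 6, against 45.0%. No TATA box, antioxidant response element core or p53 half-site matched in the 9 windows, against 11.5%, 13.3% and 6.6% of all windows. ALDH1A3 had 6 GC boxes, ALDH1B1 had 3, ALDH9A1 had 2 and no CCAAT box, and ALDH1A1, with 40.3% G and C, had none. These matches are letters in a window and not measured sites. The CCAAT box of ALDH1A2, 62 bases before the start, is counted but not printed. Stretches of 30 bases around the CCAAT box, or around a GC box for ALDH9A1, are printed as examples of the matches. They run 5′ to 3′ on the strand of the gene, with the motif in capitals (ATTGG is the CCAAT box of the opposite strand, CCGCCC the GC box of the opposite strand).
ALDH9A1: gatcccgcggccCCGCCCctcccgcggccc
ALDH1B1: aggcggagcctcATTGGccgctgagccccg
ALDH1A3: ccggtcccgcagCCAATtaggcggccccct
ALDH7A1: ggtcgggtctgcCCAATgggttctcccggg
ALDH3A2: gggccgcccaggCCAATaggggtgaggctt
ALDH1A1: gagtttgttcatCCAATcgtatccgagtat
They lie at chr1:165698610-165698639 (minus strand), chr9:38392664-38392693 (plus), chr15:100879748-100879777 (plus), chr5:126595265-126595294 (minus), chr17:19648709-19648738 (plus) and chr9:72953110-72953139 (minus). The CCAAT box began 74 bases before the start in ALDH1A1, 71 bases in ALDH1A3 and 63 bases in ALDH7A1. It began 30 bases before the start in ALDH3A2 and 26 bases in ALDH1B1.

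Of the acetaldehyde-oxidizing enzymes of the mitochondrion, ALDH2 was lower with p53si-1 by over 1.5-fold and ALDH1B1 by less. ALDH2 clears most of the acetaldehyde made from ethanol and also oxidizes aldehydes from lipid peroxidation. Its signals were 10.51 and 10.34 with NS and 9.55 and 9.18 with p53si-1. The groups did not overlap, with 0.79 between the lowest NS array and the highest p53si-1 array. The group means were 10.42 ± 0.12 and 9.36 ± 0.26 (SD, n = 2 arrays each), a log2 difference of -1.06 (standard error 0.14 from limma). This is 2.09-fold, and ALDH2 stood at place 8 from the bottom when all 18417 genes were ordered by difference. Its difference was known when the genes were chosen, so nothing is read from this place. In bulk RNA of this kind, fewer cells with the transcript and less transcript per cell cannot be told apart. Between same-numbered arrays, ALDH2 differed by -0.96 for replicate 1 and by -1.16 for replicate 2. ALDH1B1, encoded by a gene without introns in its coding region, was at 9.03 and 8.94 with NS and at 8.73 and 8.49 with p53si-1. Both p53si-1 arrays were the lower ones, as in 22.6% of all genes. The log2 difference was -0.37 (standard error 0.11 from limma), smaller than that of ALDH2 and short of 1.5-fold.

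Among the retinal-oxidizing enzymes, the NS and p53si-1 arrays were separated for ALDH1A3 and overlapped for ALDH1A1 and ALDH1A2. ALDH1A3, a retinal dehydrogenase linked to ALDH activity in breast cancer cells, was at 11.18 and 10.88 with NS and at 11.55 and 11.39 with p53si-1. Both p53si-1 arrays were above both NS arrays, by 0.21 at the nearest. The log2 difference was 0.44 (standard error 0.13 from limma), which is 1.36-fold. Without NS replicate 1 it was 0.59, over 1.5-fold, and without NS replicate 2 it was 0.29. A further transcript cluster is annotated to ALDH1A3 and went the other way, with 6.03 and 5.67 with NS and 5.57 and 5.45 with p53si-1. Its log2 difference was -0.34, and the mean of both clusters differed by 0.05. Which transcript that cluster measures is not settled by the annotation used here. ALDH1A1 was at 4.19 and 4.20 with NS and at 4.28 and 4.19 with p53si-1, and ALDH1A2 was at 4.66 and 4.51 and at 4.69 and 4.59. For both genes the NS and p53si-1 arrays overlapped, and no difference was detectable at 0.04 and 0.06. RMA understates changes at signals as low as these.

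Among the ALDH3 enzymes, which act on aromatic and fatty aldehydes, the groups were separated for ALDH3B2 and overlapped for ALDH3A1 and ALDH3A2. ALDH3B2, an enzyme of fatty aldehydes, was at 10.24 and 10.04 with NS and at 10.00 and 9.70 with p53si-1. Its groups were separated by 0.04, less than the 0.20 and 0.30 between replicates of the same group, at a log2 difference of -0.29 (standard error 0.13 from limma). ALDH3B1, its close paralog, was at -0.15 with overlapping groups, and sharing of probe signal between these genes was not examined. ALDH3A2, the microsomal fatty aldehyde dehydrogenase whose loss causes Sjögren-Larsson syndrome, was at 9.22 and 9.21 with NS and at 9.12 and 9.31 with p53si-1. The p53si-1 arrays lay on either side of the NS arrays, and the log2 difference was 0.0016 with a 95% interval of -0.23 to 0.23. ALDH3A1, an enzyme abundant in cornea and stomach, was at 5.76 and 5.96 with NS and at 5.96 and 5.91 with p53si-1, with overlapping groups and a difference of 0.08.

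The amino aldehyde enzymes gave both the second largest difference of the 10 genes and the smallest. ALDH9A1 oxidizes trimethylaminobutyraldehyde in carnitine synthesis and aminobutyraldehyde from polyamines. Its signals were 10.07 and 9.99 with NS and 9.22 and 9.36 with p53si-1, with 0.62 between the groups. The means were 10.03 ± 0.06 and 9.29 ± 0.10 (SD, n = 2 arrays each), a log2 difference of -0.74 (standard error 0.09 from limma) or 1.67-fold. ALDH9A1 stood at place 47 from the bottom of all genes. Nothing is read from this place, because the genes were chosen with this contrast known. Between same-numbered arrays ALDH9A1 differed by -0.85 and -0.62. ALDH7A1, called antiquitin, oxidizes the semialdehyde of lysine breakdown, and its loss causes pyridoxine-dependent epilepsy. It was at 10.40 and 10.38 with NS and at 10.40 and 10.38 with p53si-1, so that the groups lay on top of each other. Its log2 difference was 0.0011 with a 95% interval of -0.19 to 0.19.

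**Figure D2:**
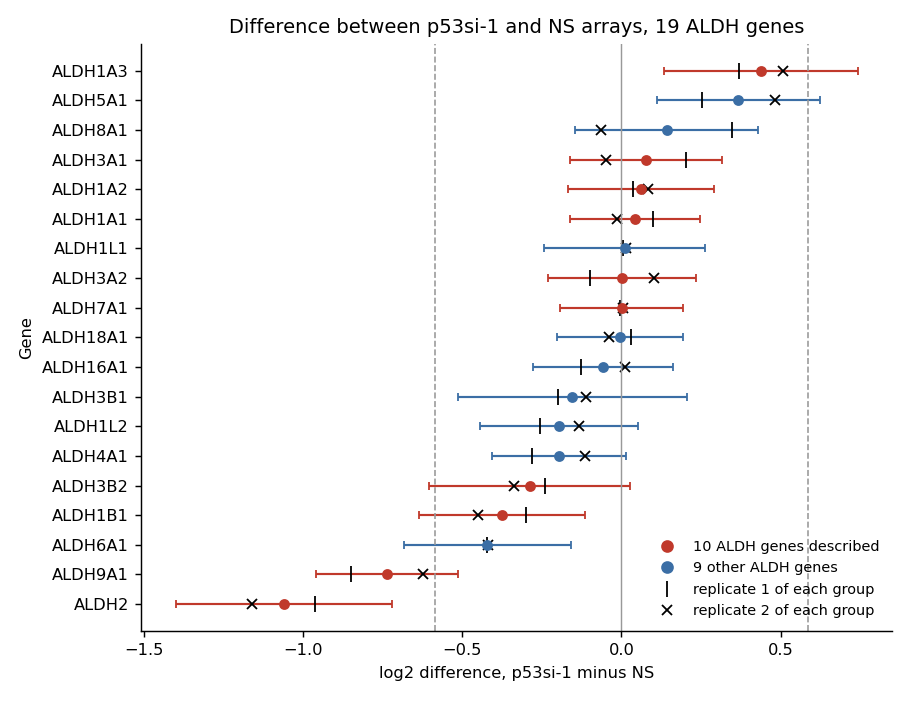
Log2 difference (p53si-1 minus NS) of the 19 ALDH genes on the arrays, in order of size, as points with 95% intervals from limma. Bars and crosses mark the differences between replicates 1 and between replicates 2 of the groups, and dashed lines mark 1.5-fold. ALDH2 at -1.06 and ALDH9A1 at -0.74 are the points beyond a dashed line, and all others lie between -0.42 and 0.44.

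Replicates of these genes were about as close as those of other genes. The pooled SD between replicates had a median of 0.10 over the 10 genes and of 0.09 over all genes, and ran from 0.01 for ALDH7A1 to 0.20 for ALDH2. In 8 of the 10 genes NS replicate 2 was lower than NS replicate 1, and in 8 of 10 p53si-1 replicate 2 was lower than p53si-1 replicate 1. The share over all genes was not counted, so this is not read as particular to the 10 genes. The largest gap between replicates was 0.37, between the p53si-1 arrays of ALDH2. The gap between the groups of ALDH2 was 0.79, but its difference was known when the genes were chosen, so nothing is read from this. ALDH2 kept a log2 difference from -1.25 to -0.88, and ALDH9A1 from -0.81 to -0.67, when any single array was left out. ALDH1B1 ran from -0.49 to -0.26 and ALDH3B2 from -0.44 to -0.14 in the same way.

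**Figure D3:**
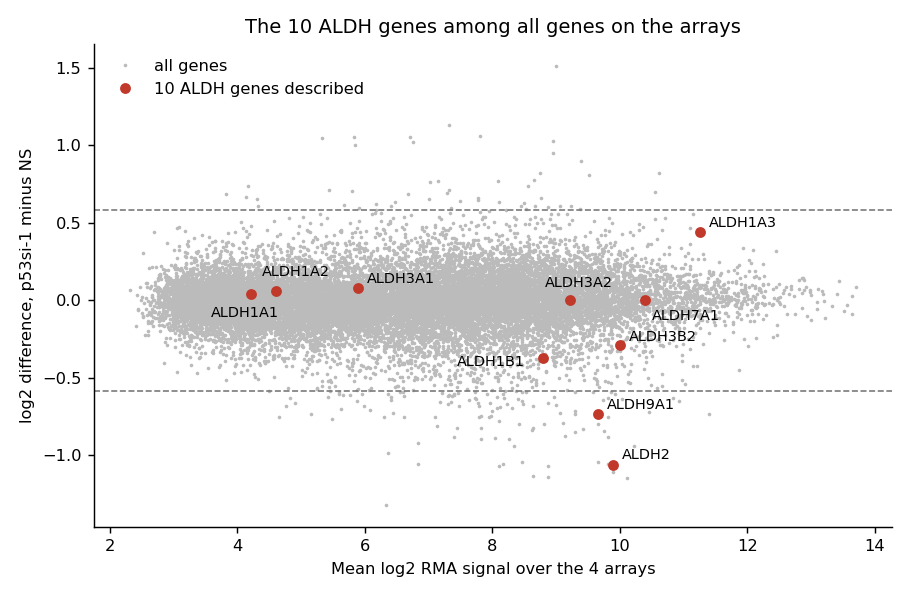
Log2 difference (p53si-1 minus NS) against the mean log2 RMA signal over the 4 arrays for all 18417 genes (grey) and for the 10 ALDH genes (red, named), with dashed lines at 1.5-fold. ALDH2 and ALDH9A1 lie below the lower line, and ALDH7A1 and ALDH3A2 lie at 0.

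The other 9 ALDH genes were compared as well. None was past 1.5-fold and 0 were at an adjusted p under 0.05 from limma, while 2 were at an unadjusted p under 0.05, against 12.3% of all genes. Those 2 were ALDH6A1 and ALDH5A1, which differed in opposite directions. ALDH6A1, which breaks down the semialdehydes of valine and thymine, was at 8.46 and 8.27 with NS and at 8.03 and 7.85 with p53si-1, a log2 difference of -0.42 (adjusted p = 0.215 from limma). ALDH5A1, the succinic semialdehyde dehydrogenase of GABA breakdown, was at 7.43 and 7.18 with NS and at 7.68 and 7.66 with p53si-1, a difference of 0.37 (adjusted p = 0.256 from limma). In both genes the groups did not overlap, and the p53si-1 arrays were lower for ALDH6A1 and higher for ALDH5A1. Of the 9 genes 3, ALDH6A1, ALDH1L2 and ALDH4A1, were separated downwards and 1 upwards, against 22.6% and 19.9% of all genes. The folate enzymes ALDH1L1 and ALDH1L2 were at 0.01 and -0.20, and the proline enzymes ALDH4A1 and ALDH18A1 at -0.20 and -0.0053. ALDH16A1 was at -0.06 and ALDH8A1, with signals of 4.27 or less, at 0.14. The median of these 9 genes was -0.06 on the log2 scale.

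Genes with the array pattern most like that of ALDH2 were sought among the other 18416 genes. Likeness was the root mean square difference between the log2 signals on the 4 arrays, after each gene was centred on its own mean. TMBIM1, of the BAX-inhibitor motif family, was closest at 0.06, followed by the splicing factor subunit SF3B6 at 0.07, the oligosaccharyltransferase subunit OSTC at 0.10, the tropomyosin TPM1 at 0.10 and the glycogen phosphorylase PYGL at 0.11. TMBIM1 was at 10.74 and 10.64 with NS and at 9.69 and 9.40 with p53si-1. Its second p53si-1 array was the lowest of the 4, as for ALDH2, SF3B6, OSTC, TPM1 and PYGL. These genes were picked for a pattern like that of ALDH2, so nothing is read from this. Within the ALDH family ALDH9A1 was the closest to ALDH2, at 0.24 and place 60 in the order of likeness, and ALDH6A1 and ALDH1B1 followed at 0.33 and 0.35. With 4 arrays in 2 groups this measure is mainly set by the difference between the groups.

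The pathways that feed or follow the ALDH enzymes were read from lists set by known role. Of their 78 measured genes 0 were at an adjusted p under 0.05 from limma. MAOA was past 1.5-fold, which is 1.28% of the 78 genes, near the 0.923% of all genes in either direction, and 5.13% were at an unadjusted p under 0.05, against 12.3% of all genes. MAOA, the mitochondrial monoamine oxidase, turns serotonin and noradrenaline into aldehydes that ALDH enzymes then oxidize. It was at 8.10 and 8.20 with NS and at 8.62 and 8.90 with p53si-1, with both p53si-1 arrays above both NS arrays. The log2 difference was 0.61 (standard error 0.12, adjusted p = 0.126 from limma), or 1.53-fold. It dropped under 1.5-fold without NS replicate 1 (0.56) or without p53si-1 replicate 2 (0.47). Among the 15 measured genes of amine, choline, carnitine and lysine oxidation 1 was at an unadjusted p under 0.05, against 12.3% of all genes, and the median was -0.05. BBOX1, which completes carnitine synthesis after the step of ALDH9A1 and is named here after its values were seen, was at 6.60 and 5.91 with NS and at 5.94 and 5.57 with p53si-1. Its groups overlapped, at a log2 difference of -0.50 (standard error 0.23, adjusted p = 0.465 from limma). Without NS replicate 2 or without p53si-1 replicate 1, 2 genes of this list were past 1.5-fold.

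The list of fatty aldehyde and sphingolipid breakdown, around ALDH3A2, also takes in neighbouring steps of lipid metabolism that are not breakdown. Of its 11 measured genes 2 were at an unadjusted p under 0.05, against 12.3% of all genes. These were FAR2, a fatty acyl-CoA reductase, at a log2 difference of 0.39, and SGPP1, a sphingosine phosphate phosphatase, at -0.22, while its relative SGPP2 was at -0.29. FAR2 was at 7.89 and 7.90 with NS and at 8.18 and 8.39 with p53si-1, so that its groups did not overlap (adjusted p = 0.205 from limma). Of 9 genes of alcohol oxidation, the step before ALDH2, 0 were at an unadjusted p under 0.05, and 6 had a mean signal below 5. ADH5, the formaldehyde-oxidizing alcohol dehydrogenase that most cells express, was at 9.06 and 9.02 with NS and at 9.16 and 9.31 with p53si-1, a difference of 0.20. ADH1B and ADH6 were at -0.25 and 0.15, with signals of 3.79 or less on every array, and the median of the list was 0.11.

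Of 25 measured genes of retinoid metabolism and response, around ALDH1A3, 1 was at an unadjusted p under 0.05, against 12.3% of all genes. It was the retinoic acid hydroxylase CYP26A1 (adjusted p = 0.393 from limma), at 4.50 and 4.44 with NS and at 4.21 and 4.31 with p53si-1, a difference of -0.21. RDH16, a retinol dehydrogenase with signals of 4.72 or less, was at 0.21, and its NS arrays differed by 0.40. PLAAT4, a retinoid-inducible phospholipase, was at -0.19 with overlapping groups, and the median of the list was 0.01. Of 18 measured genes of aldehyde disposal by reductases, glutathione transferases and other enzymes, 0 were at an unadjusted p under 0.05, and the median was 0.0045. The largest differences there were those of DCXR, a carbonyl reductase, at -0.29, of the glutathione transferase GSTP1 at -0.21 and of GSTA4, which conjugates hydroxynonenal, at 0.20.

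**Figure D4:**
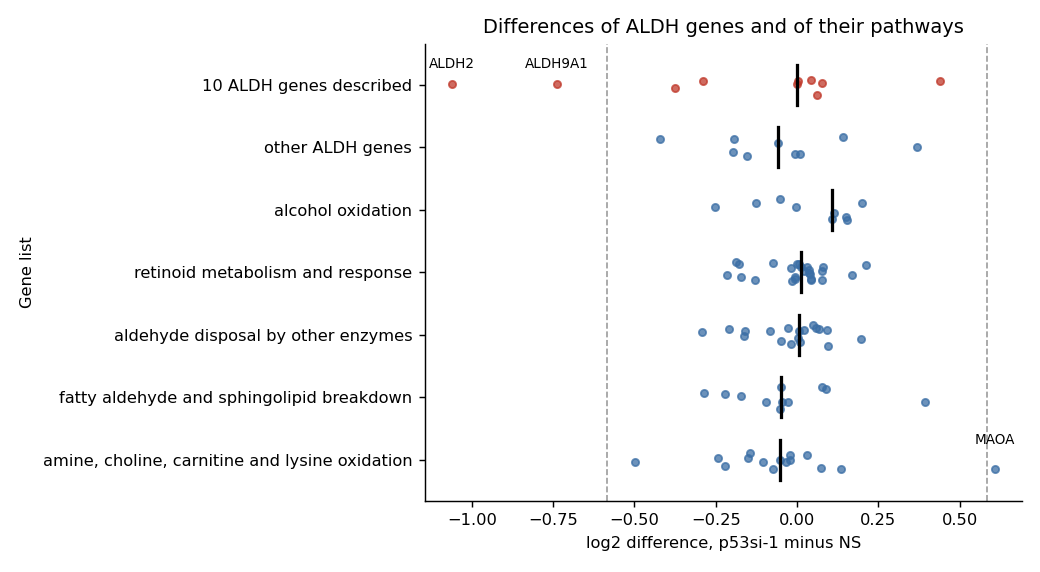
Log2 difference (p53si-1 minus NS) of each measured gene of the 10 ALDH genes (red) and of 6 further lists (blue), with black bars at list medians and dashed lines at 1.5-fold. ALDH2, ALDH9A1 and MAOA lie beyond the dashed lines, and list medians run from -0.06 to 0.11.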

How the data were processed

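RNA of MDA-MB-468 cells was hybridized to 4 Affymetrix Human Gene 1.0 ST arrays, 2 per group. The deposited values were taken as log2 signals from their range, and RMA, Affymetrix Expression Console and GCOS are named as the authors' tools in the submitters' processing notes. For RMA, settings are not given in the sources used. RMA makes arrays alike in distribution and pulls small changes of dim probes toward 0.

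Of 33297 transcript clusters, 19460 name 1 gene symbol, 1754 several, and 12083 have no name in the annotation used. Where a symbol had several clusters, the one brightest on average stood for it, which left 18417 genes, with no filter. The fit used limma 3.58.1 (R 4.3.3), with 2 residual degrees of freedom, 4.20 prior ones and Benjamini-Hochberg adjustment over all genes, and over 1.5-fold was counted from group means. The steps were tested on simulated data. That test required no recovery by adjusted p for differences as small as those of ALDH2 and ALDH9A1. The number of arrays limits the precision. Members and lists were chosen with earlier results of these data known. All 19 ALDH genes are named, and in each pathway list the genes past a threshold, or otherwise the 3 with the largest differences. Promoter windows came from RefSeq (GRCh38.p14). Alternatives changed the cluster rule, scaling, filter, prior, block, fold threshold and arrays used.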

Additional observations from a re-analysis of the deposited data

How the results depend on the processing

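ALDH2 and ALDH9A1 were lower by over 1.5-fold under all 10 other settings of the fit. The cluster mean, the signal filter, the prior and the block could not change their differences, which stayed at -1.06 and -0.74. In limma, how many of the 10 ALDH genes had an adjusted p under 0.05 went from 0 to 2 after median centring, with genes of mean log2 signal 5 or more, or with a prior variance that follows the signal, and over all genes the count went from 20 to 62, 100 and 149. Without any single array it was 0 to 1 over all genes. With the replicate number as a block it was 12 over all genes and 0 of the 10. No source says that the number marks a shared culture or day, and deviations of same-numbered arrays correlated at 0.24 over all genes. The block changed no other count. Nothing is read from the counts among the 10 genes, because they were chosen with this contrast known. Over 1.5-fold, 170 genes (50 higher, 120 lower) became 199 to 295 (61 to 110 higher, 133 to 185 lower) without a single array, the most without p53si-1 replicate 1, and 738 (267 higher, 471 lower) at 1.3-fold. At 1.3-fold 1 other ALDH gene, 1 gene of the fatty aldehyde list and 2 of the amine oxidation list were past the threshold. At 1.5-fold the last count was 1. Taking the mean of both clusters of ALDH1A3 moved its difference from 0.44 to 0.05.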
